A study of Mus musculus with 16 samples.

Results

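The genes described here mark dopamine neurons. They were chosen by gene symbol from a table of normalized counts, with no measured value in the rule. Of the 5 genes named (Th, Slc6a3, Drd2, Nr4a2 and Pitx3), 4 had a row among the 14504 genes of the table, and Pitx3 had none. The data were bulk RNA-seq of 16 libraries of dorsal raphe tissue (DRN), a brainstem region known for its serotonin neurons, punched from frozen sections of male C57BL/6 mice. Unstressed controls and mice defeated daily by CD1 aggressors for 30 days received saline or dexamethasone (DEX, a synthetic glucocorticoid, 2 mg/kg intraperitoneally) and were sampled 6 h later. The study divided the stressed mice by clustering of their behavior during non-aggressive contact into a passive (PS) and an active (AS) coping phenotype. There were 3 saline and 3 DEX controls, 2 saline and 3 DEX libraries of PS, and 3 saline and 2 DEX libraries of AS. All groups shared genotype and sex, and the controls had been housed singly before the experiment. The study removed DEX-treated DRN samples with low Tph2, so the libraries were already selected on a serotonin marker. The study's methods describe more animals in a group than the libraries analysed here. At an adjusted p under 0.1, DESeq2 on these 16 libraries called 437, 187 and 274 genes for DEX in controls, PS and AS. These are the numbers the study reports for the DRN. Libraries are named by group, treatment (sal or dex) and the number in their label, as in PS_sal_68.

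Th encodes tyrosine hydroxylase, which makes L-DOPA and limits the rate of catecholamine synthesis. Slc6a3 encodes the dopamine transporter, which takes released dopamine back up into the neuron. Drd2 encodes a dopamine receptor that acts as an autoreceptor on dopamine neurons and is also made by other neurons. Nr4a2 (Nurr1) and Pitx3 encode transcription factors that sustain dopamine neurons in the ventral midbrain, and Nr4a2 is also induced by neuronal activity. The DRN holds a small group of dopamine neurons beside its serotonin neurons, and some of them release the peptide Vip. Ddc and Slc18a2, which finish synthesis and load vesicles, work in serotonin neurons as well.

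Th (ENSMUSG00000000214.11) lies on chromosome 7 at 142892752 to 142931128 on the minus strand of GRCm38 in the GENCODE annotation. Slc6a3 (ENSMUSG00000021609.6) lies on chromosome 13 at 73536747 to 73578672, and Drd2 (ENSMUSG00000032259.8) on chromosome 9 at 49340627 to 49408177, both on the plus strand. Nr4a2 (ENSMUSG00000026826.13) lies on chromosome 2 at 57106830 to 57124003 on the minus strand. All 4 genes are protein coding, and none overlapped another annotated gene.

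The promoters of Th and Slc6a3 are shown because these were the members whose levels moved together most closely. Each window runs 5′ to 3′ along the gene from 250 bases before to 50 bases after its RefSeq start in GRCm38.p6. That of Th is chr7:142899946-142900245 on the minus strand and that of Slc6a3 is chr13:73536497-73536796 on the plus strand. Capitals mark a match to 1 of the motifs searched.
Th: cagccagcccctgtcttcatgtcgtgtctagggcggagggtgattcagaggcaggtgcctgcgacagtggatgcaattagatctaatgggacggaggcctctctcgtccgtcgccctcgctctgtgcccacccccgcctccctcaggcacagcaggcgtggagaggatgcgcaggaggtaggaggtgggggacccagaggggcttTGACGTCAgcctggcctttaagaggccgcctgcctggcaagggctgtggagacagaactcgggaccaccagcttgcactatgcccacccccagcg
Slc6a3: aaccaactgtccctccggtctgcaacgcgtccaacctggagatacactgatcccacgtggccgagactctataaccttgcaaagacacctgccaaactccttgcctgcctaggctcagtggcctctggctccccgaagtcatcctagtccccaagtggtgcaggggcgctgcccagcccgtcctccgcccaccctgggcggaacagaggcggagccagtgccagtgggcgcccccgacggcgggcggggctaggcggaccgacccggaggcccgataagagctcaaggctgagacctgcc
Both strands were searched for the Nr4a2 monomer site AAAGGTCA, the Pitx site TAATCC, the AGAACA core of the glucocorticoid response element, and the cyclic AMP response element (CRE) TGACGTCA. The match in Th was a CRE that begins 45 bases before the start. That motif occurred in 1.79% of the 32851 promoter windows of the same length. The other motifs occurred in 1.51%, 7.06% and 19.0% of windows, in the order given for Nr4a2, Pitx and glucocorticoid sites, and matched neither of the 2 windows shown.

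Th was the most abundant member per length. Over the 16 libraries its mean level was 1212 normalized counts per kb of exon, against 513 for Drd2, 170 for Slc6a3 and 93.9 for Nr4a2. This order of levels per kb held in 15 libraries, and in PS_sal_68 Drd2 (413 per kb) stood above Th (313 per kb). The genes that dopamine neurons share with serotonin neurons were far higher. Ddc (aromatic amino acid decarboxylase) averaged 14518 and Slc18a2 (the vesicular monoamine transporter) 11609 normalized counts per kb. Tph2 and Slc6a4, the synthesis enzyme and transporter of serotonin neurons, averaged 42428 and 20898 per kb. The fewest reads behind a member value were 685 for Th, 199 for Slc6a3, 908 for Drd2 and 121 for Nr4a2, in libraries of 38207157 to 62447298 reads assigned to genes. In bulk tissue, fewer cells of a type and less RNA per cell cannot be told apart.

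Th ranged most widely in absolute level. In controls it was 3194, 2903 and 4527 normalized counts in con_sal_102, con_sal_104 and con_sal_114, and 4497, 2805 and 2191 in con_dex_101, con_dex_116 and con_dex_122. In PS it was 3333 and 741 in PS_sal_62 and PS_sal_68, and 2009, 2913 and 2892 in PS_dex_6, PS_dex_34 and PS_dex_64. In AS it was 3616, 1875 and 1878 in AS_sal_8, AS_sal_14 and AS_sal_40, and 3355 and 3094 in AS_dex_38 and AS_dex_42. One library, PS_sal_68, stood far below all others, and the saline and DEX values overlapped in controls, PS and AS.

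Slc6a3 followed the same libraries. In controls it was 773, 397 and 944 normalized counts under saline, and 737, 607 and 576 under DEX, in the library order given for Th. In PS it was 663 and 215 under saline, and 403, 589 and 626 under DEX. In AS it was 772, 424 and 491 under saline, and 636 and 559 under DEX. The highest library was con_sal_114 and the lowest PS_sal_68, as for Th. The count of Th over that of Slc6a3 lay between 3.44 in PS_sal_68 and 7.31 in con_sal_104.

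Drd2 varied less. In controls it was 1543, 1484 and 1229 normalized counts under saline, and 1696, 1167 and 1137 under DEX. In PS it was 1253 and 1051 under saline, and 1224, 1374 and 1220 under DEX. In AS it was 1506, 1333 and 831 under saline, and 1543 and 1333 under DEX. Its lowest library was AS_sal_40, with PS_sal_68 next, and its highest was con_dex_101.

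Nr4a2 had the lowest levels. In controls it was 424, 317 and 427 normalized counts under saline, and 704, 402 and 358 under DEX. In PS it was 429 and 211 under saline, and 316, 363 and 512 under DEX. In AS it was 505, 268 and 111 under saline, and 361 and 387 under DEX. AS_sal_40 was lowest and PS_sal_68 next, while con_dex_101 was highest, so Nr4a2 and Drd2 shared their extremes.

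**Figure D1:**
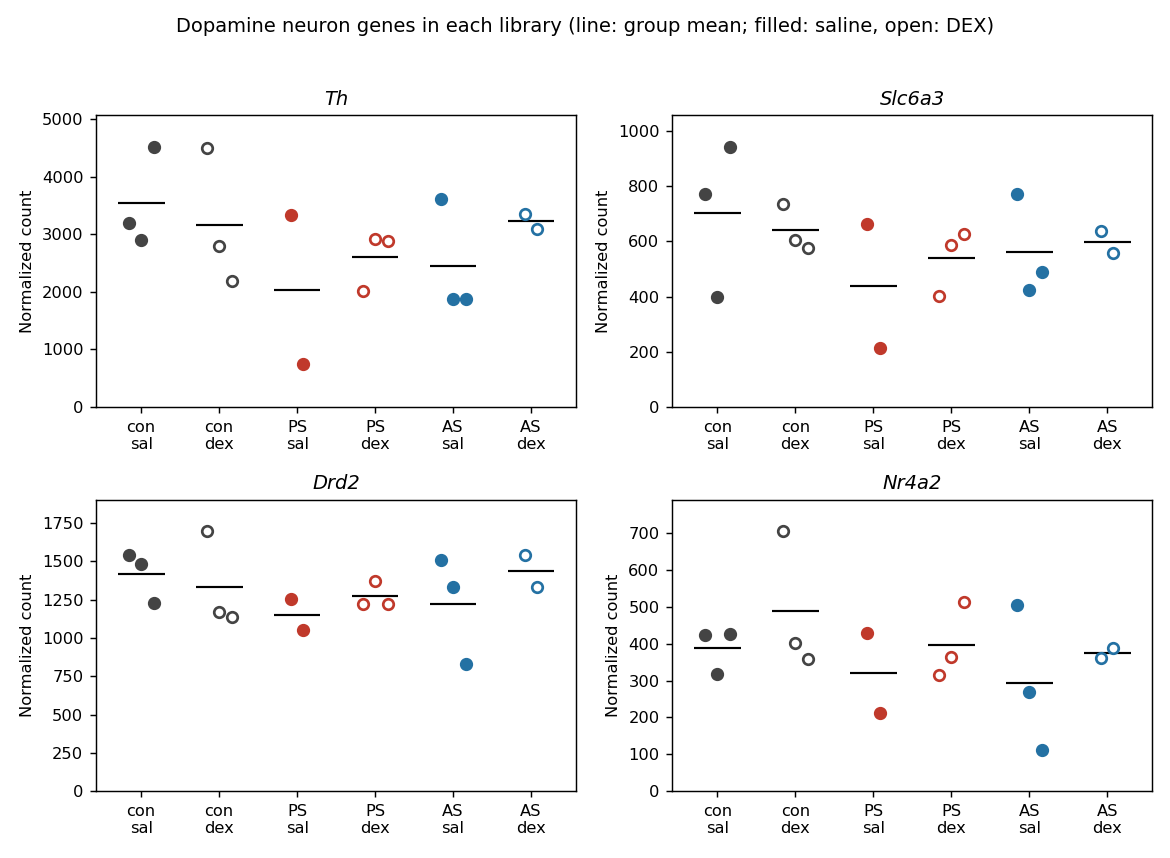
Normalized counts (y axis, from 0) of Th, Slc6a3, Drd2 and Nr4a2 in each of 16 libraries, by group (x axis), with lines at group means. PS saline holds 1 library at 741 for Th and 215 for Slc6a3, and AS saline holds 1 library at 831 for Drd2 and 111 for Nr4a2, the lowest values of these genes.

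The spread between libraries of the same group was wide for Th, Slc6a3 and Nr4a2. Their pooled within-group SD on the log2 scale was 0.63, 0.54 and 0.62, larger than that of 96.8%, 95.6% and 96.7% of the 12863 genes with a mean of at least 100. For Drd2 it was 0.27, larger than that of 75.7% of these genes, whose median was 0.19. With groups of 2 or 3 libraries, this spread limits how small a difference between groups was detectable.

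PS_sal_68 and AS_sal_40 departed from the other libraries in different members. In PS_sal_68 Th was 0.256 times the geometric mean of the other 15 libraries, and only 0.117% of genes with a mean of at least 100 had a lower ratio there. The ratio was 0.362 for Slc6a3, 0.574 for Nr4a2 and 0.804 for Drd2. In AS_sal_40 it was 0.290 for Nr4a2, 0.626 for Drd2, 0.689 for Th and 0.870 for Slc6a3. These ratios describe libraries singled out after their values were seen.

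Part of the other dopamine genes were also low in PS_sal_68. Of 32 further listed genes of dopamine synthesis, reception, midbrain specification or enrichment in the table, 13 (40.6%) had their lowest level in that library, against 4.47% of all genes. Vip was 203 normalized counts there and 1368 to 12198 in the other libraries. The peptide gene Cck was 44.3, the next lowest library being at 411. The transcription factor genes Foxa2 and Otx2 were 48.7 and 91.9, with the next lowest libraries at 143 and 297. Genes shared with serotonin neurons departed less, at 0.838 times the other libraries for Ddc, which is 1 of the 13, and 0.890 for Slc18a2. None of the 6 serotonin markers was lowest there. In AS_sal_40, 4 of the 32 genes (12.5%) were lowest, against 16.6% of all genes.

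Markers of a different cell type stood high in the same library. Chat, Slc18a3 and Slc5a7, which make, store and recapture acetylcholine, reached 2150, 1366 and 4745 normalized counts in PS_sal_68, the highest of the 16 libraries for each of them. The summed level of the 4 listed cholinergic and motor neuron genes in the table was 2817 and 8890 in the PS saline libraries. It was 2018 to 3366 in saline controls, 1917 to 6348 in DEX controls, 1765 to 3469 in DEX-treated PS, 2233 to 5510 in saline AS and 1637 to 3450 in DEX-treated AS. The remaining gene of that list, Prph, was instead lowest in PS_sal_68, at 630. Prph also made up most of the lowest saline control sum, at 1923 of 2018 in con_sal_114. In that library, the highest for Th and Slc6a3, Chat, Slc18a3 and Slc5a7 had their lowest levels, at 20.3, 16.6 and 58.1. No marker of the list in the table was at 0, and its part in the dopamine gene values was not tested.

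**Figure D2:**
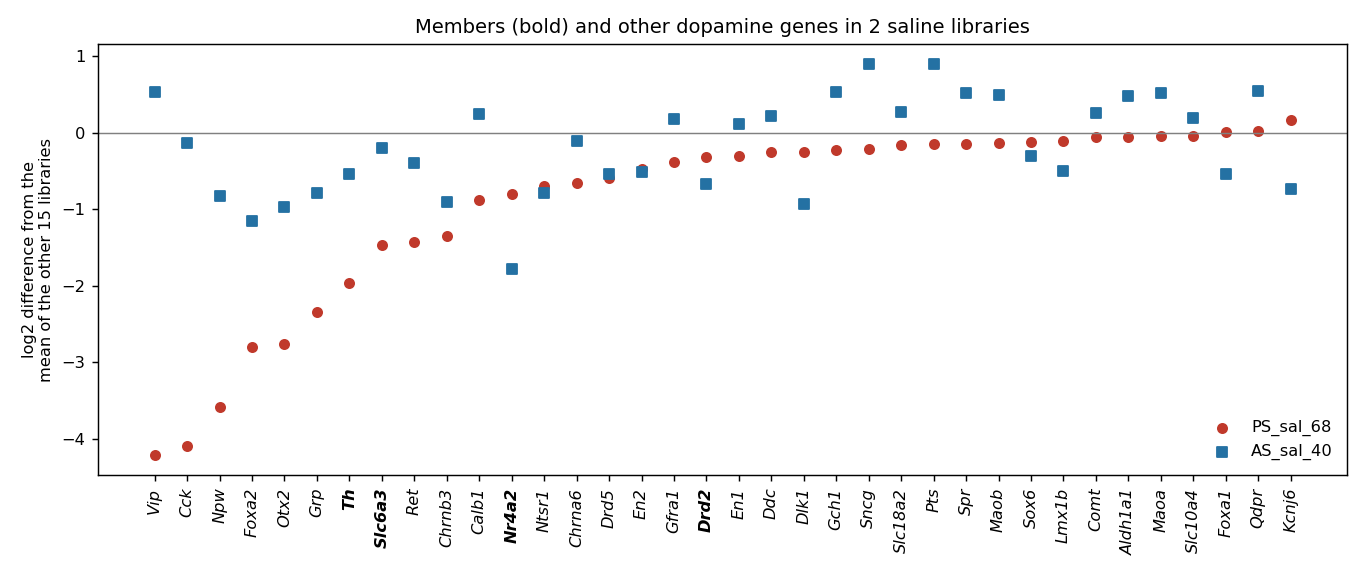
Log2 difference of PS_sal_68 (circles) and AS_sal_40 (squares) from the mean of the other 15 libraries (y axis) for the 4 members (bold) and 32 other dopamine genes (x axis, ordered by PS_sal_68). Vip and Cck lie more than 4 log2 units below the others in PS_sal_68, Th and Slc6a3 at -1.97 and -1.46, and in AS_sal_40 the lowest gene is Nr4a2 at -1.79.

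No member passed the test for an effect of DEX. These comparisons ask whether the drug altered the dopamine genes in each phenotype. In controls, 0 of 4 members were called at an adjusted p under 0.1 (limma on log2 normalized counts, Benjamini-Hochberg over all genes), where 1.26% of genes were called. In PS 0 of 4 members were called, against 0.703% of genes, and in AS 0 of 4, against 0.689%. For the DEX effect averaged over the phenotypes it was again 0 of 4, against 4.31% of genes. In the same libraries the 7 listed glucocorticoid target genes separated the treatments. Their mean log2 deviation was 0.75 to 1.17 in DEX libraries and -1.14 to -0.79 in saline libraries.

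The averaged effect of DEX was positive for each member. It was a log2 difference of 0.41 for Nr4a2 (SE 0.28, 95% interval -0.18 to 1.01, limma adjusted p = 0.51). Th differed by 0.32 (SE 0.27, interval -0.26 to 0.91, limma adjusted p = 0.599). For Slc6a3 and Drd2 the differences were 0.19 (interval -0.33 to 0.70) and 0.10 (interval -0.17 to 0.38). These intervals allow for up to a 2.01-fold higher level of Nr4a2 under DEX and at most a 1.30-fold higher level of Drd2. Without PS_sal_68 the averaged difference turned to -0.04 for Th and -0.08 for Slc6a3. That of Nr4a2 ran from 0.22 to 0.59 with 1 library left out at a time.

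Within phenotypes the differences between DEX and saline had wider intervals than the averaged effect. In controls they lay between -0.20 for Th and 0.27 for Nr4a2, in PS between 0.15 for Drd2 and 0.71 for Th, and in AS between 0.13 for Slc6a3 and 0.60 for Nr4a2, all as log2 differences. For Th in PS the 95% interval was -0.35 to 1.76 with all libraries, and the difference was -0.38 without PS_sal_68 and 1.79 without PS_sal_62. For Nr4a2 in AS the difference ran from 0.023 to 1.11 with 1 library left out at a time. Differences of the DEX effect between phenotypes were tested as interaction terms in limma. None of the 4 members was called for PS against control, AS against control or AS against PS, and over all genes the share called was 0.0% in each of these. The largest interaction was that of Th for PS against control, a log2 difference of 0.91 (interval -0.50 to 2.32).

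Chronic defeat was compared with control under saline, which asks how the dopamine genes stood in mice given no drug. Th averaged 2037 ± 1833 (SD, n = 2) normalized counts in PS and 3541 ± 866 (SD, n = 3) in controls. The log2 difference was -1.14 (SE 0.49, 95% interval -2.20 to -0.09), and it did not pass the test (limma adjusted p = 0.571). Its unadjusted p was the one value under 0.05 among the 52 limma tests of members, where 7.67% of genes had such a p in this comparison. The groups overlapped, because PS_sal_62 (3333) lay above 2 of the 3 controls. Without PS_sal_68 the difference was -0.06, and without PS_sal_62 it was -2.23 (limma adjusted p = 0.146, a lone library being assumed to vary like the other groups).

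Slc6a3 pointed the same way in this comparison, at -0.81 (SE 0.43, interval -1.73 to 0.12, limma adjusted p = 0.571), and its difference was 0.0029 without PS_sal_68. Nr4a2 and Drd2 differed by -0.36 and -0.30, with intervals that spanned 0. Against controls, saline AS mice had log2 differences of -0.64 for Nr4a2, -0.57 for Th, -0.28 for Slc6a3 and -0.25 for Drd2, all with intervals across 0. Without AS_sal_40 those of Nr4a2 and Drd2 were -0.07 and 0.0053. The PS and AS comparisons share the 3 saline controls, so their common direction is not independent.

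No member was called in a comparison of phenotypes. Under saline, 0 of 4 members were called for PS against control, AS against control or AS against PS, and 0.0% of genes were called in each of them. Under DEX, 0 of 4 were called for PS against control and AS against PS, each beside 0.0% of genes, and 0 of 4 for AS against control, beside 0.00689%. Differences under DEX lay between -0.32 for Nr4a2 and 0.13 for Drd2 in AS against control, and between -0.26 for Slc6a3 and -0.04 for Drd2 in PS against control. Th in the AS DEX libraries (3355 and 3094) lay above all 3 PS DEX libraries. This was the one pair of groups without overlap among the members, and 19.1% of all genes had no overlap between these groups. The difference there was a log2 value of 0.33 (interval -0.73 to 1.38). With edgeR and DESeq2 on reads recovered from the table, no member was called in any of the 13 comparisons, and 0 member tests had an unadjusted p under 0.05. For the DEX effects in controls, PS and AS and their average, edgeR called 1.24%, 0.696%, 0.703% and 4.29% of all genes, and DESeq2 called 3.01%, 1.29%, 1.89% and 6.23%. In the other 9 comparisons edgeR called 0.0% of genes. DESeq2 called 0.0276%, 0.0758% and 0.00689% under saline for PS against control, AS against control and AS against PS. Under DEX it called 0.0%, 0.0827% and 0.0345% in the same order, and for the interactions 0.00689% for AS against PS and 0.0% for the others.

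**Figure D3:**
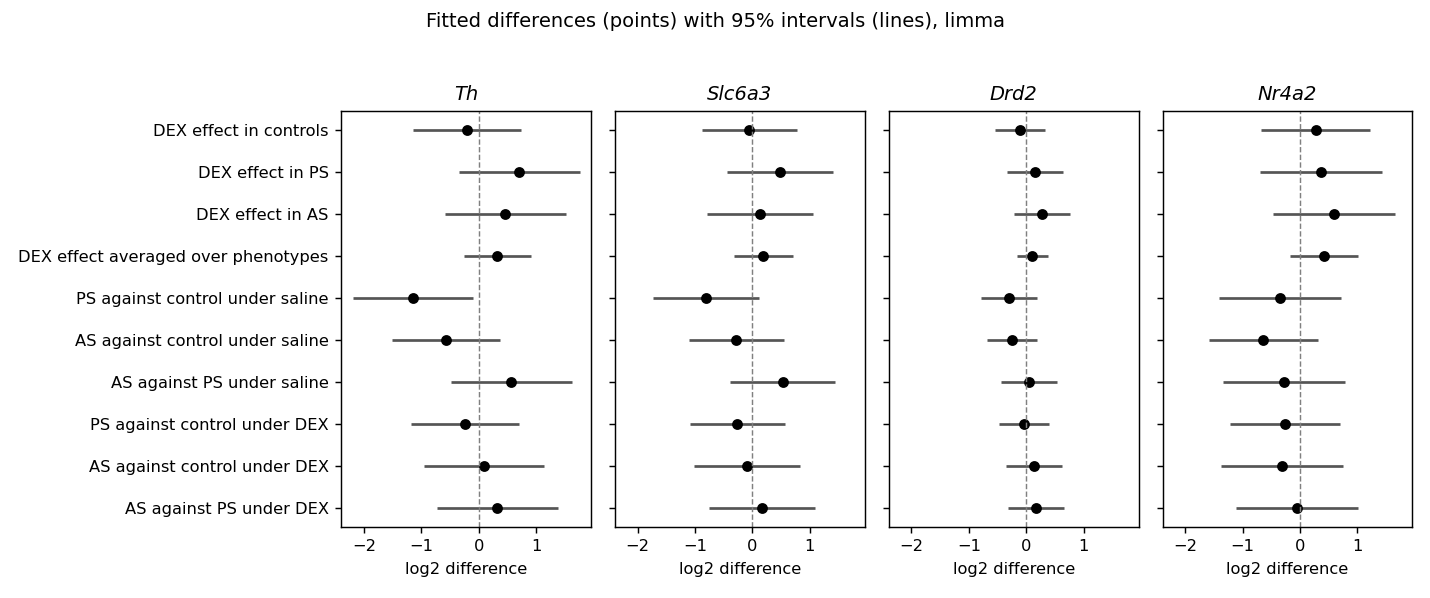
Log2 differences (points, x axis) with 95% intervals (lines) from limma for each member in the 10 comparisons of groups (y axis). The intervals cross 0 except for Th in PS against control under saline (-2.20 to -0.09), and those of Drd2 are the narrowest.

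The levels of the members were correlated across libraries. Th and Slc6a3 were the closest pair over the 16 libraries, with a Pearson r of 0.91 on the log2 scale (permutation p = 4e-05, adjusted p = 0.00024 over 6 pairs) and a Spearman rho of 0.84 (adjusted p = 0.00048). After each group's mean was subtracted, r was 0.89 (exact permutation p = 0.000579, adjusted p = 0.00347). Without PS_sal_68 and con_sal_114, the libraries farthest from the median of Th, it was 0.74 (permutation p = 0.00249, adjusted p = 0.00498).

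Nr4a2 followed both of them. Its r with Th was 0.70 (permutation p = 0.0109, adjusted p = 0.0219) with a rho of 0.78 (adjusted p = 0.0012), and r was 0.74 within groups and 0.78 without the 2 farthest libraries. With Slc6a3 its r was 0.62 (permutation p = 0.021, adjusted p = 0.0252) with a rho of 0.82 (adjusted p = 0.00072), and r was 0.65 within groups and 0.61 without the 2 farthest. Drd2 was less firmly tied to the rest. Its r with Th was 0.60 (permutation p = 0.0201, adjusted p = 0.0252) with a rho of 0.68 (adjusted p = 0.00784), but within groups r was 0.50 (exact permutation adjusted p = 0.146), and without the 2 farthest libraries it was 0.73.

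The relation of Drd2 to Nr4a2 rested on a pair of libraries. Their r was 0.76 (permutation p = 0.00129, adjusted p = 0.00387) while rho was 0.44 (adjusted p = 0.0897), and within groups r was 0.80 (exact permutation p = 0.0224, adjusted p = 0.0336). It passed with any 1 library left out, the lowest r being 0.53 without AS_sal_40 (permutation p = 0.0398, adjusted p = 0.0478), but without both con_dex_101 and AS_sal_40 r was 0.34 (permutation p = 0.239). Slc6a3 and Drd2 gave an r of 0.41 (permutation p = 0.121, adjusted p = 0.121) and a rho of 0.46 (adjusted p = 0.0897). In all, 5 of the 6 pairs passed an adjusted p of 0.05 by Pearson's r. Without con_dex_101 only 2 passed, Th with Slc6a3 and Drd2 with Nr4a2, as the adjusted p of both Nr4a2 with Th and Nr4a2 with Slc6a3 became 0.0518.

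**Figure D4:**
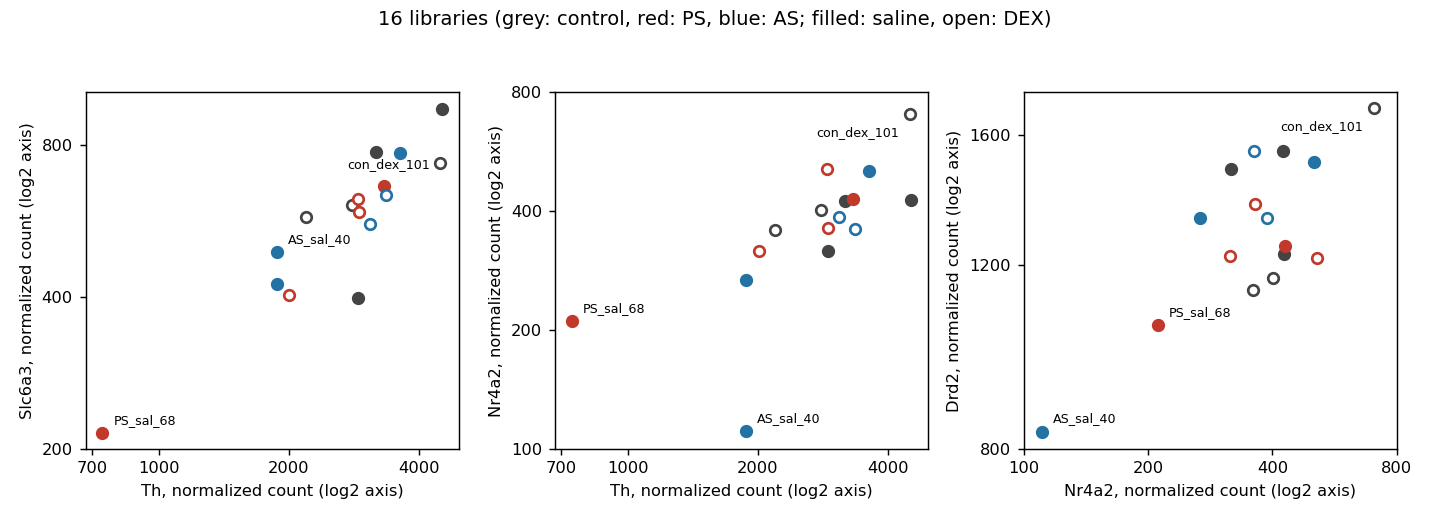
Normalized counts of Slc6a3 against Th, Nr4a2 against Th and Drd2 against Nr4a2 (log2 axes), with 1 point per library. PS_sal_68 lies at the low end of Th and Slc6a3 (r = 0.91), and the relation of Drd2 to Nr4a2 (r = 0.76) is carried by AS_sal_40 and con_dex_101.

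No relation of a member to serotonin neuron, GABA neuron or ependymal markers passed the test. Markers of cholinergic and glutamate neurons were not tested against the members. Each member was set against the mean log2 deviation of 6 serotonin neuron, 5 GABA neuron and 5 ependymal cilia genes, and 0 of the 12 relations passed an adjusted p of 0.05. The strongest was Drd2 with the GABA genes, with an r of 0.48 (permutation p = 0.0591, adjusted p = 0.71) and a rho of 0.46 (adjusted p = 0.515). Th with the serotonin genes had an r of -0.06 (permutation p = 0.818, adjusted p = 0.892) and a rho of -0.31 (adjusted p = 0.693). Without the 2 libraries farthest from the median of Th, that r was -0.25. Nr4a2 with the serotonin genes had an r of -0.33 (permutation p = 0.202, adjusted p = 0.854) and a rho of -0.41. Against the mean standardized log2 level of the members, 5 of the 6 serotonin genes had a negative r, down to -0.49, and 1 a positive r. Cholinergic and motor neuron genes divided by the same r, at -0.51 for Chat, -0.50 for Slc5a7, -0.37 for Slc18a3 and 0.64 for Prph. Glutamate neuron genes did too, at -0.58 for Slc17a8 and 0.51 for Slc17a6. Without PS_sal_68 these values were -0.28, -0.31, -0.16, 0.33, -0.44 and 0.66, in the order given. They are a description, with no test. The summed serotonin genes lay between 186398 and 300709 normalized counts over all libraries. Dbh and Slc6a2, markers of noradrenaline neurons, another source of Th, had no row in the table, and those neurons were not analysed here.

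The genes most like the members, among genes with a mean of at least 100, were led by transcription factors of the ventral midbrain. Their likeness is the Pearson r over 16 libraries with the mean standardized log2 level of the 4 members, given as a description. The libraries differed in depth and in markers of other cells, the summed ependymal cilia genes lying between 602 and 9588 normalized counts. Foxa2 (0.91) and Otx2 (0.89), which act in ventral midbrain development, came first, followed by Ntsr1 (0.88), the neurotensin receptor. Il1rapl2, Emx2, Foxp2, Kcnh1, Barhl1, Ret and Chrnb3 completed the 10, at 0.82 to 0.86. Without PS_sal_68 the values of Foxa2, Otx2 and Ntsr1 were 0.87, 0.84 and 0.85.

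Single members had different neighbors. For Th they were Otx2 (r = 0.97), Foxa2 (0.94) and Cck (0.94), and for Slc6a3 Th itself (0.91), Cck (0.89) and Ret (0.88). Drd2 was nearest to Rtn4r (0.86), Tcerg1l (0.83) and Gpr27 (0.81), and Nr4a2 to Fras1, Kcnh1 and Slit3 (each 0.85). None of these neighbors of Drd2 or Nr4a2 was among those of Th or Slc6a3. Only the closest 3 of 12862 genes were taken for each, so this says little about overlap. Kcnh1 was also close to the mean level of the members (0.83).

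Genes of the dopamine pathway divided in their likeness to the members. The 9 further genes of synthesis, storage and breakdown, most of them used by serotonin neurons too, all had a negative r, from -0.43 for Maoa to -0.12 for Ddc. The 7 further midbrain transcription factors in the table all had a positive r, but a high one only for some. It was 0.91 for Foxa2, 0.89 for Otx2 and 0.69 for En2, and 0.15 to 0.21 for Sox6, En1, Lmx1b and Foxa1. That of En1 turned from 0.19 to -0.12 without PS_sal_68. Lmx1a, also listed, had no row in the table. Of 15 further genes enriched in dopamine neurons, 11 had a positive r, among them Chrnb3 (0.82), Npw (0.80), Cck (0.79) and Vip (0.53). The r of Vip was 0.08 without PS_sal_68, and Aldh1a1, the retinaldehyde dehydrogenase of some dopamine neurons, had an r of -0.12.

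Among these 32 further dopamine genes, limma called 1 in the 13 comparisons, and edgeR and DESeq2 on the recovered reads called the same 1. Qdpr, which regenerates the cofactor that Th and Tph2 need, fell under DEX averaged over phenotypes by 0.34 on the log2 scale (SE 0.09, limma adjusted p = 0.0632), 1 of 32 beside 4.31% of all genes. In 8 of the 16 fits with 1 library left out it no longer passed (con_sal_104, con_dex_101, con_dex_122, PS_sal_62, PS_sal_68, PS_dex_64, AS_dex_38 and AS_dex_42), with limma adjusted p-values up to 0.214. The median averaged effect over the 32 genes was 0.04, beside -0.0026 over all genes. In PS against control under saline limma called none of the 32, and 9 had an unadjusted p under 0.05, against 7.67% of all genes. The median difference of the 32 was -0.21. The PS arm there is 2 libraries, and without PS_sal_68, the lowest library for 13 of these genes, 2 of the 32 had such a p and the median was -0.0036.

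The averaged effects of DEX on the shared monoamine genes were small. They were log2 differences of 0.03 for Ddc (interval -0.21 to 0.26) and 0.01 for Slc18a2 (interval -0.19 to 0.21). Vip differed by 0.73 (interval -0.46 to 1.91) and Aldh1a1 by 0.13 (interval -0.13 to 0.38). The averaged difference of Vip took in PS_sal_68, where it was at 203 normalized counts. Vip was at 2900 in PS_sal_62 and at 1368 to 5968 in the DEX libraries of PS. Tph2 and Slc6a4 differed by -0.18 and -0.07. None of these passed the test in limma.

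Nr4a1, the activity-induced relative of Nr4a2, ranged from 193 normalized counts in AS_sal_40 to 632 in PS_dex_64. Its averaged effect of DEX was a log2 difference of 0.25 (interval -0.05 to 0.55, limma adjusted p = 0.443), and its r with the members was 0.51. Like Nr4a2, it was lowest in AS_sal_40. The third member of that family, Nr4a3, had no row in the table.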

How the data were processed

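The authors deposited 1 table of normalized counts (a signal scale, gene counts divided by size factors) for the 16 libraries, and tables of fold changes and p-values of their own comparisons, which were not used here. The submitters' processing notes name fastp 0.20.1, HISAT2 2.2.1, featureCounts of Subread 2.0 and DESeq2 1.36.0 on GRCm38. The labels and the study's methods name different RNA reagents and sequencers for the DRN. Libraries were strand-specific and poly(A)-selected. Whether counting used strand is not given in the sources used here. Multiplying by size factors recovered from the low values gave whole reads for 100.0% of values (tolerance 0.01 reads). The labels do not say that libraries of a group came from separate animals, while the study describes its replicates as animals.

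Values were analysed as log2(value + 1) in limma 3.58.1 (R 4.3.3) with 6 group means fitted over all libraries and genes, 10 residual and 3.88 prior degrees of freedom, and Benjamini-Hochberg adjustment. A fold change on this scale understates the change of low genes. The script was tested on simulated data. Correlations used 100000 permutations, or all 5184 exchanges within groups for group-centred values. The named genes were the members in the table, dopamine-list genes called in any comparison, Ddc, Slc18a2, Aldh1a1, Vip, Tph2, Slc6a4, Nr4a1, and those most like the members. Genes named beyond this were chosen after their values were seen. They were Cck, Foxa1, Foxa2, Otx2, Npw, Maoa, Sox6, En1, En2 and Lmx1b. The named genes of the cholinergic, GABA neuron, glutamate neuron and immediate early lists also belong here. The members and gene lists were chosen with earlier results of these data known. Alternatives were edgeR 4.0.16 and DESeq2 1.42.0 on the recovered reads, other pseudocounts, filters, scalings, weights and covariates, and each library left out.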

Additional observations from a re-analysis of the deposited data

How the results depend on the processing

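No member was called in any of the 13 comparisons under the 27 alternatives, where the smallest limma adjusted p was 0.125. Of 24 member differences followed through them (DEX within and over phenotypes, PS and AS against control under saline), 12 changed sign at least once, in each case only where 1 library was left out, and 7 of the 14 sign changes came without PS_sal_68. Leaving out 1 library at a time, the DEX difference in controls lay between -0.49 and 0.031 for Th, -0.42 and 0.20 for Slc6a3, and -0.023 and 0.46 for Nr4a2. In PS it lay between -0.38 and 1.79 for Th, -0.32 and 1.30 for Slc6a3, and -0.14 and 0.88 for Nr4a2. In AS it was -0.045 to 0.39 for Slc6a3, and averaged over phenotypes it was -0.038 to 0.69 for Th and -0.082 to 0.46 for Slc6a3. Under saline the difference of PS from control was -1.62 to 0.0029 for Slc6a3 and -0.87 to 0.15 for Nr4a2, and that of AS from control was -0.42 to 0.0053 for Drd2. The number of correlated pairs of members lay between 2 (without con_dex_101) and 5. Qdpr kept its direction throughout, at -0.38 to -0.27, and its call was also lost with the serotonin neuron score as a covariate (limma adjusted p = 0.242). The cause of these shifts was not tested. No paired analysis was possible because the replicate numbers in the labels are not shared between groups. Groups of 2 or 3 libraries, and a within-group spread above that of most genes, limit what could be detected for Th, Slc6a3 and Nr4a2.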

Other observations

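Immediate early genes, which neurons induce when active, were also compared with the members. The r of the 7 immediate early genes measured with the mean level of the members ran from 0.0077 for Arc to 0.60 for Junb over the 16 libraries. Egr1 stood at 0.49 with all libraries and 0.67 without PS_sal_68. Positive values were common, as Arc ranked only 6134th of 12859 genes by this r. The 7 listed glucocorticoid target genes were all positive too, at 0.17 to 0.29. The mean level of the members includes Nr4a2, which is itself induced by activity. Of the 7, 4 were lowest in AS_sal_40, the library with the lowest Nr4a2, against 16.6% of all genes: Egr1 (285 normalized counts), Fos (96.1), Arc (331) and Nr4a1 (193). Junb was lowest in PS_sal_68, Ier2 in AS_sal_14 and Npas4 in con_sal_104. These values are a description of 16 libraries, with no test.

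Vip varied more between libraries of a group than the 4 members did, with a within-group SD of 1.27 on the log2 scale. It was highest in con_sal_114 at 12198 normalized counts, the library that was also highest for Th and Slc6a3. Sst, a peptide gene of GABA neurons, was likewise lowest in PS_sal_68 at 1425 and next lowest in AS_sal_40 at 2226 normalized counts. The other 4 genes of the GABA list were above the mean of the other libraries in PS_sal_68, by 0.31 for Gad1, 0.33 for Gad2, 0.32 for Slc32a1 and 0.98 for Pvalb on the log2 scale, where Sst was at -1.74. Slc17a8, the vesicular glutamate transporter found in part of the serotonin neurons, was highest in PS_sal_68, at 20800, and lowest in con_sal_114, at 5085.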
